A study of Mus musculus with 9 samples.

Results

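Type I interferon-stimulated genes and the nucleic acid sensors that belong to the same response were followed in RAW 264.7 macrophages. The group was a list of 46 mouse gene symbols, taken by name out of 54432 gene rows. Each of the 46 symbols had 1 row, and 45 of them passed the filter (over 10 counts in 3 or more libraries) and were tested among 12637 genes. The exception was Mx1, an antiviral GTPase, which had between 2 and 6 counts per library. RNAseq covered 3 groups of 3 libraries from cells harvested after 6 hours. CTRL libraries came from untreated cells, VLDLsep libraries from cells given 1 mM artificial VLDL-sized emulsion particles, and CHYLsep libraries from cells given 1 mM chylomicron-sized emulsion particles. These doses are those of the RNAseq methods. The legend of a supplementary heatmap of these cells gives a lower dose for the chylomicron-sized particles. If that dose was used, dose and particle size cannot be told apart. RAW 264.7 is a mouse macrophage-like cell line. Both particles are sunflower oil emulsified with sodium caseinate, so they are rich in triglyceride and were made without apolipoproteins, and no library came from cells given caseinate alone. The methods describe biological triplicates in which the samples of a condition from 1 experiment were pooled.

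Type I interferons are secreted when a cell senses foreign or misplaced nucleic acid. They bind the receptor pair IFNAR1 and IFNAR2, whose kinases JAK1 and TYK2 phosphorylate STAT2. It joins IRF9 in the complex ISGF3, which binds interferon-stimulated response elements and switches on the genes followed here. Macrophages keep many of these genes at a low tonic level without infection, and several of the encoded proteins are themselves sensors or relays of the same pathway.

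The library totals lay between 22393893 and 22856792 estimated counts. The 12 macrophage markers examined were all present, with a summed level of 7917 to 7978 cpm in CTRL, 7046 to 7358 cpm in VLDLsep and 7288 to 7582 cpm in CHYLsep. Of 20 markers of other cell types, 9 had 0 counts in every library, 2 (Cdh5 and Pdgfra) exceeded 10 counts, and the summed level was between 2.7 and 3.96 cpm in every library. The 3 libraries with replicate number 3 lay apart from the others of their group on the second principal component (14.4% of the variance, against 49.1% for the first), so the main counts are also given without them. Levels are cpm, which are counts relative to the TMM-normalized library total. Adjusted p is from limma with voom weights and Benjamini-Hochberg adjustment over all 12637 genes, a call is an adjusted p under 0.05, gene coordinates are those of GENCODE for GRCm38, and errors of fold changes are SE.

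Many interferon-stimulated genes were lower in macrophages treated with either particle. VLDLsep lowered 30 of the 45 tested genes and raised 1, Trim25, with a median log2 fold change of -0.56 and a range from -2.45 to 0.42. CHYLsep lowered 22 and raised 0, with a median of -0.35 and a range from -1.60 to 0.26. Among all genes tested, 17.9% were lower and 17.8% higher with VLDLsep, and 13.0% were lower and 12.7% higher with CHYLsep, and the median log2 fold change was -0.000282 and 0.00133. Scaled by library size alone, 26.2% of all genes were lower and 11.9% higher with VLDLsep (19.9% and 8.45% with CHYLsep), beside 33 and 30 lower interferon-stimulated genes. All 3 VLDLsep libraries lay below all 3 CTRL libraries for 33 of the 45 genes, against 23.7% of all genes, and the CHYLsep libraries did so for 29, against 20.9%. Both comparisons use the same 3 CTRL libraries. The genes were chosen with earlier results of these data known, so the shares of all genes are given as a description only. Since the RNA came from whole cultures, fewer cells expressing a gene and less RNA per cell cannot be told apart.

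A lower median level was seen in every treated library. The median over the 45 genes of the log2 ratio to the CTRL mean (with 0.5 cpm added) was -0.51, -0.40 and -0.62 in VLDLsep replicates 1, 2 and 3 and -0.34, -0.29 and -0.53 in CHYLsep replicates 1, 2 and 3, while the CTRL libraries lay at -0.05, 0.01 and 0.03. Replicate 3 was thus the lowest in both treated groups and the highest in CTRL. Without the 3 libraries of replicate 3, 32 genes were lower and 1 higher with VLDLsep (median -0.50), and 26 were lower and 1 higher with CHYLsep (median -0.28). Calls among all genes also rose in that fit. They numbered 5380 for VLDLsep and 4182 for CHYLsep of 12386 genes, against 4500 and 3249 of 12637 in the main fit. With the replicate number as a block, VLDLsep lowered 35 and raised 1, while 6058 of all 12637 genes passed, against 4500 without the block. The added calls thus came with more calls among all genes. Of the 45 genes, 39 were lower with VLDLsep in all 3 same-numbered pairs, compared with 34.2% of all genes. Of the 12 macrophage markers, 6 were lower and 1 (Cd68) higher with VLDLsep (17.9% and 17.8% of all genes). Their median log2 fold change was -0.13, with a range from -0.83 to 0.17. With CHYLsep 3 markers were lower and 0 higher (13.0% and 12.7% of all genes), with a median of -0.09 and a range from -0.68 to 0.22. Those lower with both were Ptprc, Cd14 and Fcgr1, with log2 fold changes of -0.31 ± 0.06, -0.54 ± 0.05 and -0.83 ± 0.09 for VLDLsep and -0.23 ± 0.06, -0.47 ± 0.05 and -0.68 ± 0.09 for CHYLsep, and Cd68 was at 0.17 ± 0.05 and 0.13 ± 0.05. The part of the markers in the result was not tested.

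**Figure D1:**
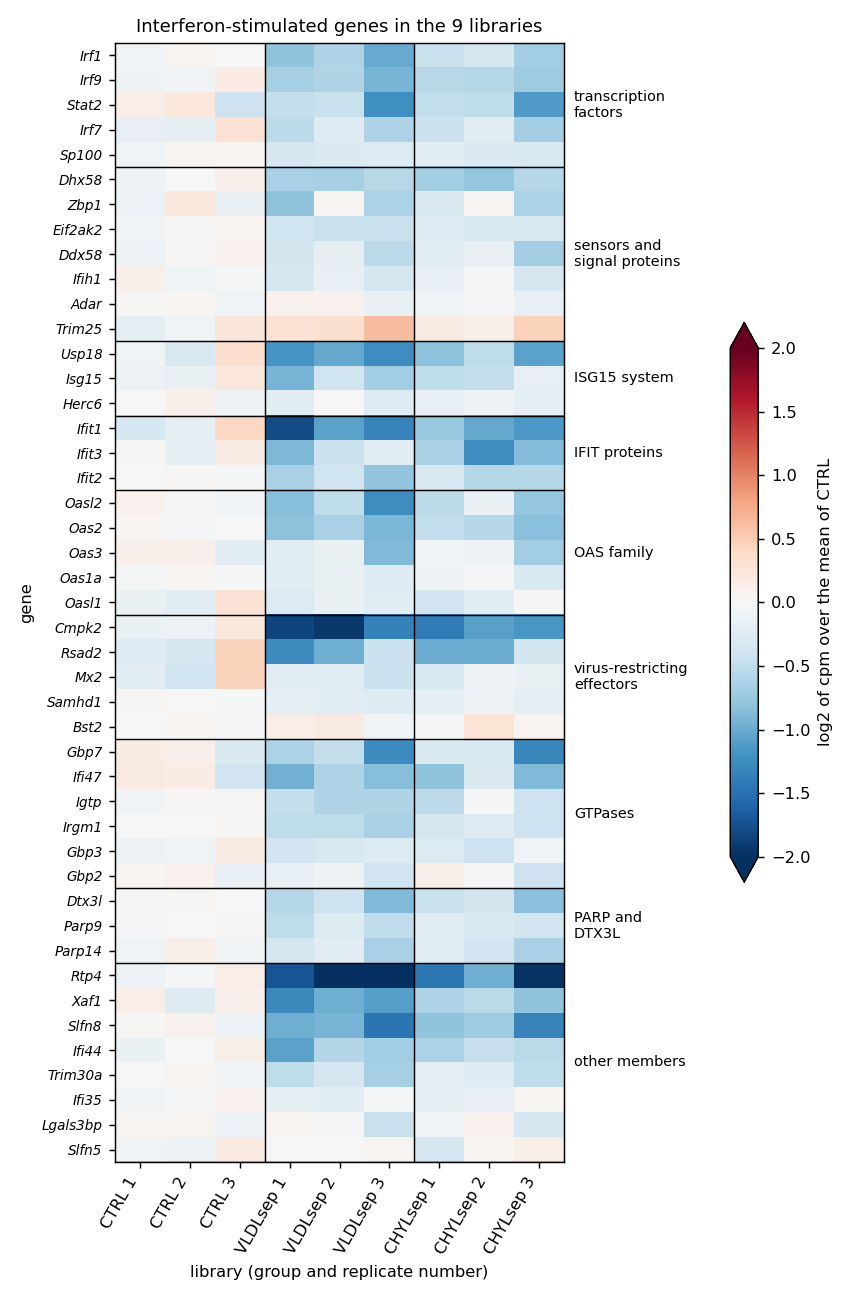
Heatmap of the 45 tested interferon-stimulated genes (rows, grouped by role) in the 9 libraries (columns). Colour is the log2 of cpm over the mean of CTRL, each with 0.5 cpm added; blue is below CTRL. Cmpk2 and Rtp4 are among the darkest rows in the VLDLsep columns, and Trim25 is red in all 6 treated columns.

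**Figure D2:**
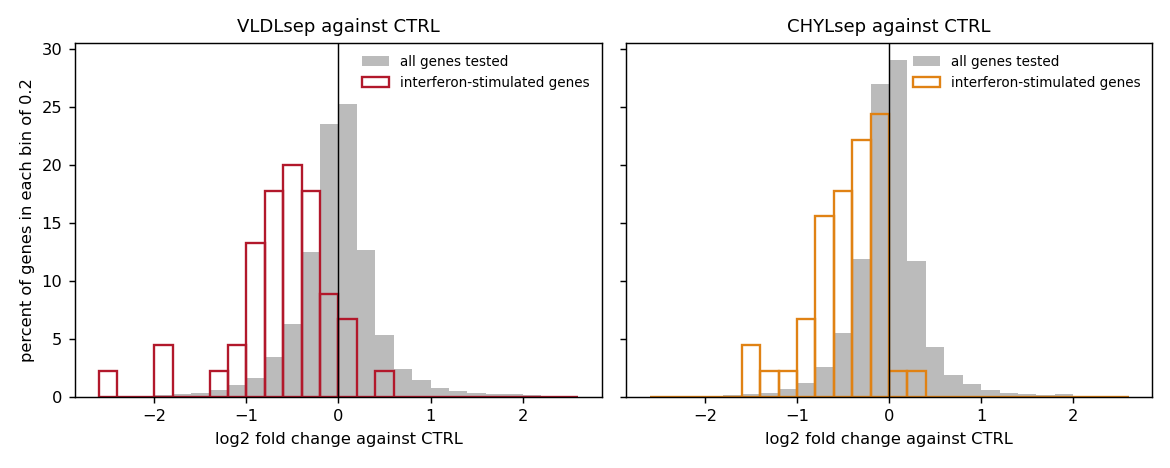
Percent of genes in bins of 0.2 of the log2 fold change against CTRL, for all 12637 genes tested (grey) and the 45 interferon-stimulated genes (outlined), for VLDLsep on the left and CHYLsep on the right. All genes centre on 0, while the outlined genes centre on -0.56 and -0.35. Genes beyond the axis (0.522% and 0.38% of all genes) are not drawn.

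**Figure D3:**
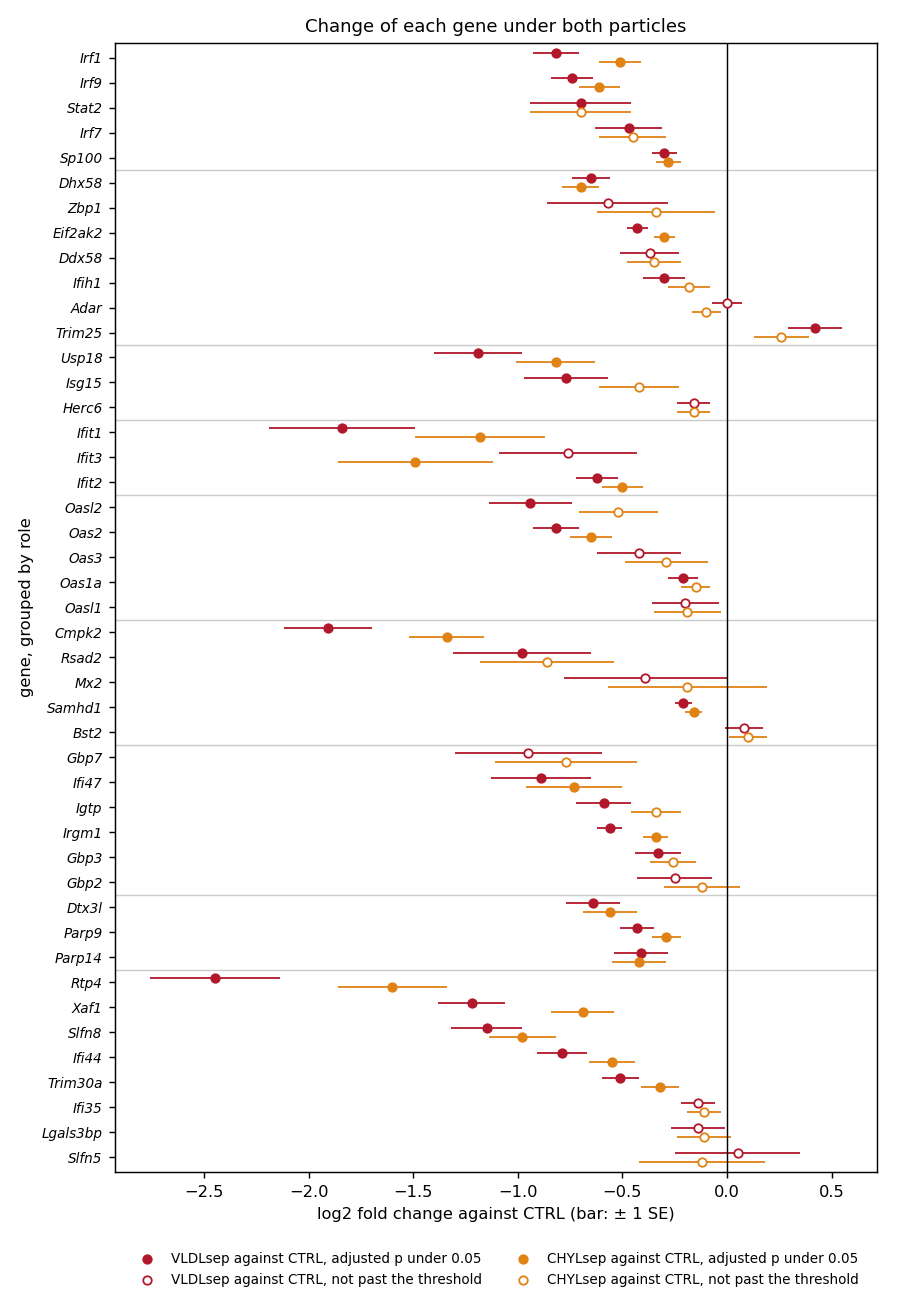
Log2 fold change against CTRL of each of the 45 genes with ± 1 SE, for VLDLsep (red) and CHYLsep (orange), grouped by role. Filled points passed an adjusted p of 0.05, 31 for VLDLsep and 22 for CHYLsep. Both particles were compared with the same CTRL libraries.

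The upstream sequence of the genes was searched for the core of an interferon-stimulated response element, since the factors of this pathway that are IRF proteins bind a repeat of GAAA. The motif was GAAANNGAAA on either strand (TTTCNNTTTC on the other), where overlapping matches were counted apart, in RefSeq windows of 300 bases from 250 before to 50 after a gene start (GRCm38.p6). Of the 46 genes, 37 had a window, and 19 of these (51.4%) held the motif. Of all 27025 genes with a window, 3.99% held it, as did 3.87% of the 9344 tested genes with a window and 46.4% of 69 other interferon-stimulated genes. Shown here are the 250 bases before the start of 5 genes, with matches in capitals. Isg15, Ifit1 and Slfn8 hold a match and fell with VLDLsep, Cmpk2 holds none and fell, and Bst2 holds overlapping matches and did not pass the test. Their places are chr4:156200819-156201068 (minus strand) for Isg15, chr19:34640639-34640888 (plus strand) for Ifit1, chr11:83020811-83021060 (minus strand) for Slfn8, chr12:26468965-26469214 (plus strand) for Cmpk2 and chr8:71537473-71537722 (minus strand) for Bst2, each sequence being read 5′ to 3′ along its gene.
Isg15: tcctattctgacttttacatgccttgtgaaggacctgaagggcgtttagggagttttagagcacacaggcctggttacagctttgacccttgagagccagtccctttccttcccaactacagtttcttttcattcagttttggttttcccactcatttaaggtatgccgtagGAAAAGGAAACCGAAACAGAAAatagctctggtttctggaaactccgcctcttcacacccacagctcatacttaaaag
Ifit1: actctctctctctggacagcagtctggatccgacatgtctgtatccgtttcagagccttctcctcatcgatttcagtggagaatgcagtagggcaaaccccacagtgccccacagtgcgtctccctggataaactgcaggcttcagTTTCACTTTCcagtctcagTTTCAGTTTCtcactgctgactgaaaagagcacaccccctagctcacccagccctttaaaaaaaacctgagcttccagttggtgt
Slfn8: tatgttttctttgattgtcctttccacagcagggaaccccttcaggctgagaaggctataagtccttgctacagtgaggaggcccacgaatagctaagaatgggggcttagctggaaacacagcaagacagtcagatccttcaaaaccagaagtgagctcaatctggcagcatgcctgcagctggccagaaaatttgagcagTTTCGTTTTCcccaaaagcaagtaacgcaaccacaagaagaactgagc
Cmpk2: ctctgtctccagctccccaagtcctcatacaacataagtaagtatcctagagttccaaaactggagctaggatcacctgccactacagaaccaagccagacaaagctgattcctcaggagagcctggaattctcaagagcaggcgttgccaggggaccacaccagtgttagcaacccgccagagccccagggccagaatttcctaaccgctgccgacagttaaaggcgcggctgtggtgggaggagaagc
Bst2: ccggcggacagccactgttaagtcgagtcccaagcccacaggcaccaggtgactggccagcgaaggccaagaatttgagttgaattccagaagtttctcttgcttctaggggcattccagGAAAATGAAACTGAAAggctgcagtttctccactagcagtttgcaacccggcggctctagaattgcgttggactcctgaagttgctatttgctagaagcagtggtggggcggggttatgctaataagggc

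VLDLsep lowered 12 of the 19 genes with a match and 12 of the 18 without one, beside 17.9% of all genes. The median log2 fold change was -0.51 with a match and -0.55 without one. With CHYLsep the medians were -0.34 and -0.47. The difference between the 2 sets of genes was not tested. The 9 genes Dhx58, Mx1, Mx2, Oas2, Parp14, Parp9, Rtp4, Usp18 and Zbp1 had no window in the table.

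**Figure D4:**
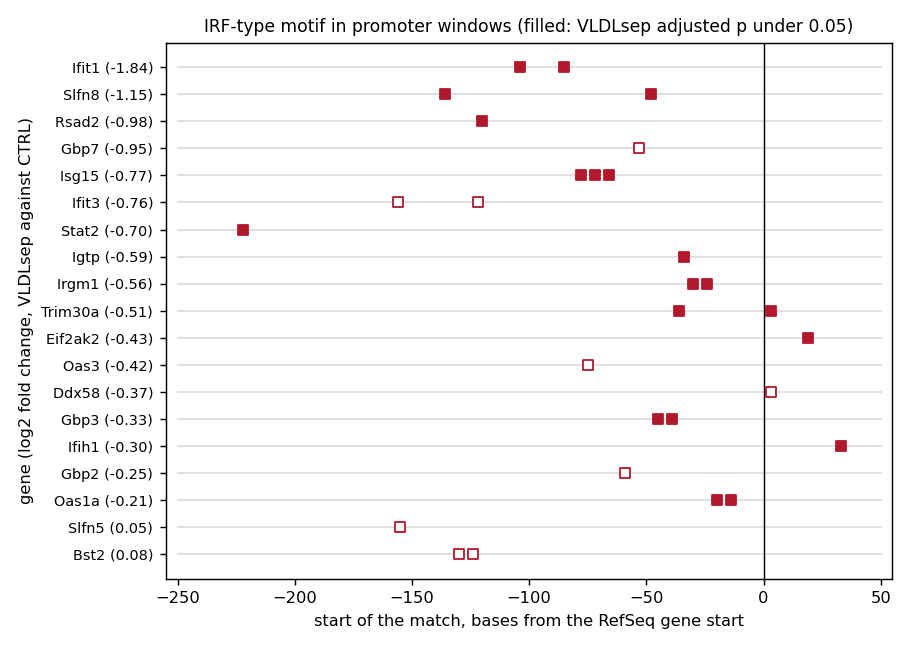
Start of each match to the motif in the 19 genes that hold it, in bases from the RefSeq gene start (x axis), with genes ordered by their log2 fold change for VLDLsep (given in brackets). Filled squares mark genes with an adjusted p under 0.05; Slfn8 has 2 starts, so its 1 match is drawn at both distances, and Trim30a has 1 match at each of 2 starts. Genes with filled and open squares both hold matches within the bases just before the start.

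The 5 transcription factors were lower with VLDLsep (17.9% of all genes) and 3 of them, Irf9, Irf1 and Sp100, with CHYLsep (13.0% of all genes). Irf9 was at 31.5, 32.4 and 38 cpm in CTRL, 21.2, 22.2 and 17.5 cpm in VLDLsep and 23, 22.7 and 20.6 cpm in CHYLsep. IRF9 is the DNA-binding subunit of ISGF3, and no treated library reached the lowest CTRL library. With VLDLsep its log2 fold change was -0.74 ± 0.10 (adjusted p = 2.9e-04), and with CHYLsep -0.61 ± 0.10 (adjusted p = 0.0014). Irf1 was at 31.7, 34 and 32.7 cpm in CTRL, 18.5, 21.3 and 16.1 cpm in VLDLsep and 23.9, 25.5 and 20.1 cpm in CHYLsep. IRF1 is itself induced by interferon and by NF-κB, and neither treated group overlapped with CTRL, VLDLsep being below CHYLsep within each replicate number. Irf1 showed log2 fold changes of -0.82 ± 0.11 (adjusted p = 1.9e-04) with VLDLsep and -0.51 ± 0.10 (adjusted p = 0.0045) with CHYLsep. Sp100 was at 43.8, 48 and 47.5 cpm in CTRL, 36.6, 38.1 and 38.5 cpm in VLDLsep and 39.4, 38 and 37.7 cpm in CHYLsep. SP100 is a component of nuclear bodies, and its treated libraries lay closely together below CTRL. Relative to CTRL the log2 fold change was -0.30 ± 0.06 (adjusted p = 0.0021) for VLDLsep and -0.28 ± 0.06 (adjusted p = 0.0049) for CHYLsep.

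Stat2 and Irf7 passed the test for VLDLsep by a narrow margin. Stat2 was at 29.4, 31 and 20 cpm in CTRL, 19.1, 19.6 and 11.2 cpm in VLDLsep and 19, 18.6 and 12 cpm in CHYLsep. STAT2 is the subunit through which ISGF3 activates transcription, and its replicate 3 library was the lowest of each group. The treated libraries did not reach the lowest CTRL library. For Stat2 the fitted log2 fold changes were -0.70 ± 0.24 (adjusted p = 0.044) with VLDLsep and -0.70 ± 0.24 (adjusted p = 0.056) with CHYLsep. The VLDLsep call was lost without CTRL replicate 1 or 2, VLDLsep replicate 1 or 3 or CHYLsep replicate 1 or 2 (adjusted p = 0.051 to 0.15), and a CHYLsep call was gained without CTRL replicate 3 or VLDLsep replicate 3 (adjusted p = 0.016 to 0.024). With each particle Stat2 was lower in all 3 same-numbered pairs. In limma with the replicate block it passed for VLDLsep (adjusted p = 2.5e-06) and CHYLsep (adjusted p = 3.5e-06). Irf7 was at 13.2, 13.1 and 18.3 cpm in CTRL, 10.2, 12.3 and 9.56 cpm in VLDLsep and 10.9, 12.6 and 9.12 cpm in CHYLsep. IRF7 amplifies interferon production, and its CTRL and treated libraries did not overlap although VLDLsep replicate 2 and CHYLsep replicate 2 came close to the lowest CTRL library. Irf7 was fitted at -0.47 ± 0.16 (adjusted p = 0.045) for VLDLsep and -0.45 ± 0.16 (adjusted p = 0.067) for CHYLsep on the log2 scale. The VLDLsep call was lost without CTRL replicate 3, VLDLsep replicate 1 or 3 or CHYLsep replicate 1 (adjusted p = 0.06 to 0.13), and also without replicate 3 in every group. With the replicate block Irf7 passed for VLDLsep (adjusted p = 0.028) and CHYLsep (adjusted p = 0.041). The span of Irf7 overlaps that of Phrf1 on the other strand by 45 bases and that of Irf9 overlaps Rnf31 by 123 bases. Whether the counting used strand is not given in the sources used here, and reads from shared bases cannot be told apart.

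**Figure D5:**
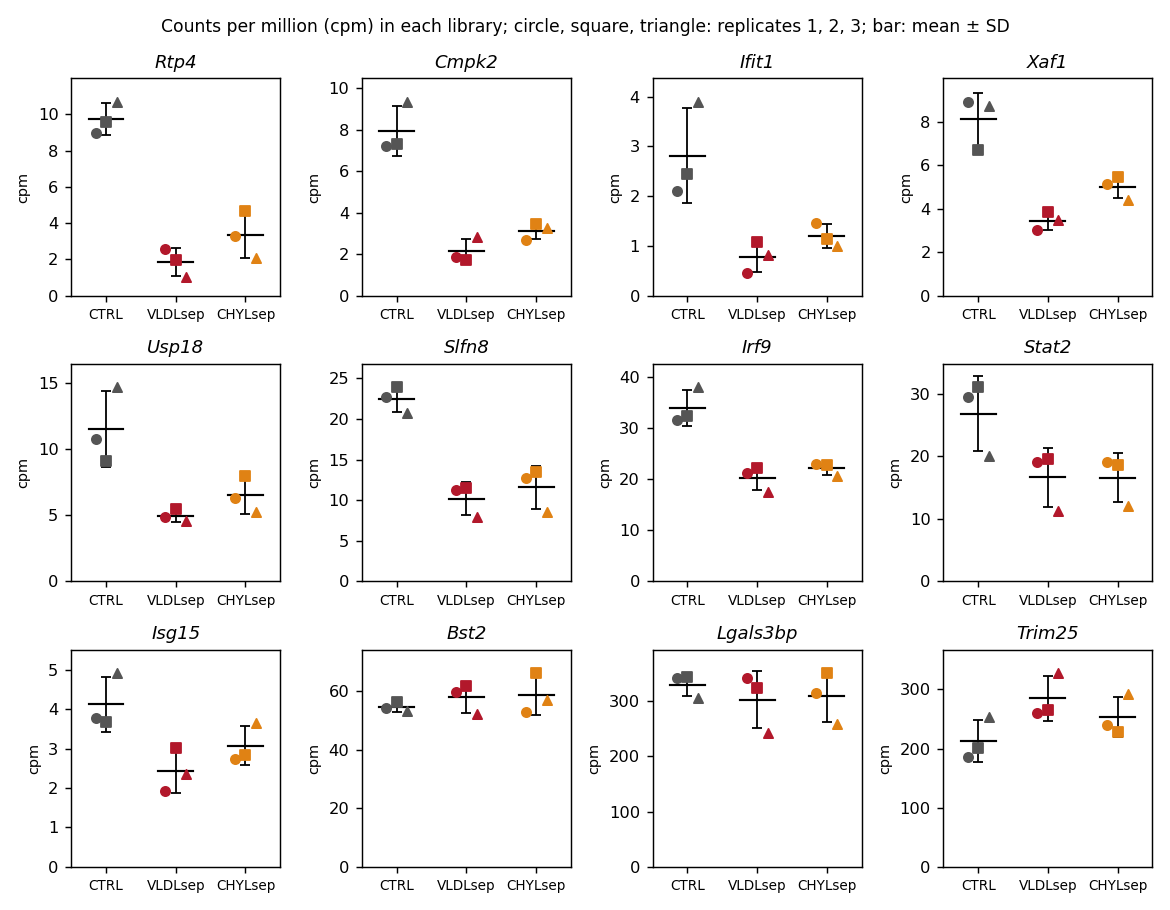
Level in cpm (y axis, from 0) of 12 genes in each library of CTRL, VLDLsep and CHYLsep (x axis). Points are libraries, with a circle, square and triangle for replicates 1, 2 and 3, and bars are the mean ± SD of 3 libraries. Rtp4, Cmpk2, Ifit1, Xaf1, Usp18, Slfn8, Irf9, Stat2 and Isg15 lie below CTRL in every treated library, Bst2 and Lgals3bp overlap with CTRL, and Trim25 lies above CTRL in every VLDLsep library.

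Of the RNA sensors of the RIG-I family, Dhx58 passed for both particles, Ifih1 for VLDLsep and Ddx58 for neither. Dhx58 was at 14.2, 15.3 and 16.4 cpm in CTRL, 9.54, 9.43 and 10.2 cpm in VLDLsep and 9.39, 8.78 and 10.1 cpm in CHYLsep. DHX58 (LGP2) modulates the other RNA helicases of the family and was lower in all treated libraries. The log2 fold change was -0.65 ± 0.09 (adjusted p = 2.7e-04) for VLDLsep and -0.70 ± 0.09 (adjusted p = 2.9e-04) for CHYLsep. Ifih1 was at 16.5, 14.5 and 15.1 cpm in CTRL, 12, 13.6 and 12 cpm in VLDLsep and 13.7, 14.9 and 12.1 cpm in CHYLsep. IFIH1 (MDA5) senses long double-stranded RNA. Its VLDLsep libraries lay below CTRL, whereas CHYLsep replicate 2 lay within the CTRL range. With VLDLsep its log2 fold change was -0.30 ± 0.10 (adjusted p = 0.04), and with CHYLsep -0.18 ± 0.10 (adjusted p = 0.21), and the VLDLsep call was lost without CTRL replicate 1 or 3, VLDLsep replicate 1 or 3 or CHYLsep replicate 1 (adjusted p = 0.052 to 0.14). Ddx58 was at 25, 27.5 and 28.8 cpm in CTRL, 21, 23.5 and 18.6 cpm in VLDLsep and 23.3, 24.4 and 16.6 cpm in CHYLsep. DDX58 (RIG-I) senses RNA with a 5′ triphosphate, and no treated library reached CTRL. Ddx58 showed log2 fold changes of -0.37 ± 0.14 (adjusted p = 0.055) with VLDLsep and -0.35 ± 0.13 (adjusted p = 0.082) with CHYLsep, so that neither passed. It passed with the replicate number as a block for VLDLsep (adjusted p = 0.014) and without CHYLsep replicate 3 (adjusted p = 0.01), and in 7 of 19 alternatives in all.

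Among the other sensors and signal proteins, Eif2ak2 (chr17:78852564-78882573) fell and Trim25 (chr11:88999376-89020293) rose. Eif2ak2 was at 72.9, 78.1 and 78.3 cpm in CTRL, 57.8, 56 and 55.9 cpm in VLDLsep and 63.8, 61.7 and 60.8 cpm in CHYLsep. EIF2AK2 (PKR) is a kinase that halts translation when it binds double-stranded RNA, and its 3 groups were fully separated, with CHYLsep between CTRL and VLDLsep. Relative to CTRL the log2 fold change was -0.43 ± 0.05 (adjusted p = 8.7e-05) for VLDLsep and -0.30 ± 0.05 (adjusted p = 0.0015) for CHYLsep. Trim25 was at 185, 201 and 253 cpm in CTRL, 260, 266 and 328 cpm in VLDLsep and 240, 228 and 292 cpm in CHYLsep. TRIM25 is a ubiquitin ligase that assists RIG-I signalling, and its VLDLsep libraries all lay above its highest CTRL library while CHYLsep overlapped with CTRL. For Trim25 the fitted log2 fold changes were 0.42 ± 0.13 (adjusted p = 0.029) with VLDLsep and 0.26 ± 0.13 (adjusted p = 0.19) with CHYLsep. The VLDLsep call was lost without CTRL replicate 1 or 2 or VLDLsep replicate 3 (adjusted p = 0.086 to 0.11) and when libraries were scaled by their totals alone, whereas CHYLsep passed without CTRL replicate 3 (adjusted p = 0.042). Zbp1, a sensor of Z-form nucleic acid, and Adar, which edits double-stranded RNA, did not pass, with log2 fold changes of -0.57 ± 0.29 and 0.00 ± 0.07 for VLDLsep and -0.34 ± 0.28 and -0.10 ± 0.07 for CHYLsep. Zbp1 passed for VLDLsep without VLDLsep replicate 2 (adjusted p = 0.045).

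In the ISG15 system, the modifier Isg15 (chr4:156199424-156200818) and its protease Usp18 (chr6:121245906-121270917) fell with VLDLsep. Isg15 was at 3.78, 3.67 and 4.93 cpm in CTRL, 1.92, 3.01 and 2.37 cpm in VLDLsep and 2.75, 2.84 and 3.65 cpm in CHYLsep. ISG15 is a ubiquitin-like protein that is joined to other proteins. All VLDLsep libraries and all CHYLsep libraries lay below CTRL, CHYLsep replicate 3 being just under the lowest CTRL library. Isg15 was fitted at -0.77 ± 0.20 (adjusted p = 0.013) for VLDLsep and -0.42 ± 0.19 (adjusted p = 0.14) for CHYLsep on the log2 scale, and the VLDLsep call was lost without VLDLsep replicate 1 (adjusted p = 0.058). Usp18 was at 10.8, 9.14 and 14.7 cpm in CTRL, 4.84, 5.44 and 4.6 cpm in VLDLsep and 6.29, 7.97 and 5.24 cpm in CHYLsep. USP18 removes ISG15 and also blocks the interferon receptor, and its treated libraries did not overlap with CTRL. The log2 fold change was -1.19 ± 0.21 (adjusted p = 0.0012) for VLDLsep and -0.82 ± 0.19 (adjusted p = 0.01) for CHYLsep, so that VLDLsep left 43.8% and CHYLsep 56.7% of the CTRL level. Usp18 is among the inflammatory genes that the study selected on these libraries, so its decrease is not independent evidence. Herc6, the ligase that attaches ISG15 in the mouse, was at -0.16 ± 0.08 (adjusted p = 0.17) on the log2 scale for VLDLsep, and of the 19 alternatives 1 called it, the replicate block (adjusted p = 0.047). Of the other enzymes of this route, Uba7, the activating enzyme, fell from 21.4 ± 3.22 to 13.8 ± 1.16 cpm with VLDLsep (SD, n = 3; log2 fold change -0.62 ± 0.12, adjusted p = 0.0028), while the log2 fold change of Ube2l6, the conjugating enzyme, was -0.26 ± 0.12 (adjusted p = 0.11).

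The IFIT proteins bind viral RNA that lacks host cap marks, and their 3 genes lie in 1 cluster on chromosome 19. Ifit1 was at 2.1, 2.44 and 3.9 cpm in CTRL, 0.456, 1.08 and 0.819 cpm in VLDLsep and 1.46, 1.13 and 1 cpm in CHYLsep. These are low levels, from 10 to 91 counts per library, but no treated library reached CTRL. With VLDLsep its log2 fold change was -1.84 ± 0.35 (adjusted p = 0.0021), and with CHYLsep -1.18 ± 0.31 (adjusted p = 0.018). The CHYLsep call was lost without CHYLsep replicate 2 or 3 (adjusted p = 0.06 to 0.061), and also without replicate 3 in every group. Ifit2 was at 21.9, 22 and 21.2 cpm in CTRL, 13.7, 16.3 and 12.4 cpm in VLDLsep and 17.2, 14.4 and 14.5 cpm in CHYLsep. Ifit2 had more reads and a smaller decrease, and neither treated group overlapped with CTRL. Ifit2 showed log2 fold changes of -0.62 ± 0.10 (adjusted p = 9.1e-04) with VLDLsep and -0.50 ± 0.10 (adjusted p = 0.0046) with CHYLsep. Ifit3 was at 1.34, 1.1 and 1.52 cpm in CTRL, 0.477, 0.854 and 1.08 cpm in VLDLsep and 0.661, 0.27 and 0.502 cpm in CHYLsep. With 6 to 36 counts per library Ifit3 was the only one of the 45 genes that passed for CHYLsep and not for VLDLsep, although all 6 treated libraries were below CTRL. Relative to CTRL the log2 fold change was -0.76 ± 0.33 (adjusted p = 0.1) for VLDLsep and -1.49 ± 0.37 (adjusted p = 0.013) for CHYLsep, and the CHYLsep call was lost without CHYLsep replicate 2 (adjusted p = 0.056). Its difference between the particles was 0.74 ± 0.40 (VLDLsep minus CHYLsep, adjusted p = 0.81). Ifit1 and Ifit3 have close copies (Ifit1bl1 and Ifit3b), so their counts are uncertain where reads could be split.

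The OAS family makes 2′-5′-linked oligoadenylates that activate RNase L, and 3 of its 5 genes passed for VLDLsep and 1, Oas2, for CHYLsep. All genes were lower in 17.9% of cases with VLDLsep and in 13.0% with CHYLsep, so 1 of 5 is near that share. Oas2 was at 16.8, 16.1 and 16.3 cpm in CTRL, 9.08, 10.3 and 8.46 cpm in VLDLsep and 11.5, 10.9 and 8.98 cpm in CHYLsep. Both treated groups lay below CTRL, and the log2 fold change was -0.82 ± 0.11 (adjusted p = 1.8e-04) for VLDLsep and -0.65 ± 0.10 (adjusted p = 0.001) for CHYLsep. Oasl2 was at 8.62, 7.84 and 7.76 cpm in CTRL, 4.24, 5.53 and 3.14 cpm in VLDLsep and 5.49, 7.2 and 4.51 cpm in CHYLsep. OASL2 is an OAS-like protein, and its treated libraries lay below CTRL with CHYLsep replicate 2 nearest to it. For Oasl2 the fitted log2 fold changes were -0.94 ± 0.20 (adjusted p = 0.0044) with VLDLsep and -0.52 ± 0.19 (adjusted p = 0.068) with CHYLsep, and CHYLsep passed without VLDLsep replicate 3 or CHYLsep replicate 2 (adjusted p = 0.035 to 0.039). Oas1a was at 71.9, 75.1 and 71.5 cpm in CTRL, 62.3, 65.5 and 61.1 cpm in VLDLsep and 67.5, 70.8 and 58.8 cpm in CHYLsep. All treated libraries were below CTRL, but by a small margin. Oas1a was fitted at -0.21 ± 0.07 (adjusted p = 0.035) for VLDLsep and -0.15 ± 0.07 (adjusted p = 0.13) for CHYLsep on the log2 scale. The VLDLsep call of Oas1a was lost without CTRL replicate 1 or 2 or VLDLsep replicate 1 or 3 (adjusted p = 0.072 to 0.11), and reads could be shared with its copy Oas1g. Oas3 and Oasl1 did not pass, with log2 fold changes of -0.42 ± 0.20 and -0.20 ± 0.16 for VLDLsep and -0.29 ± 0.20 and -0.19 ± 0.16 for CHYLsep. Oas3 was lower in replicate 3 of every group, and with the replicate block it passed for VLDLsep (adjusted p = 4.9e-04).

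Cmpk2 (chr12:26469204-26479837) and Rsad2 (chr12:26442746-26456452), which lie head to head with 12751 bases between them, were the virus-restricting genes that fell most. Cmpk2 was at 7.23, 7.29 and 9.35 cpm in CTRL, 1.87, 1.71 and 2.82 cpm in VLDLsep and 2.66, 3.47 and 3.28 cpm in CHYLsep. CMPK2 is a mitochondrial nucleotide kinase that supplies CTP to viperin, the product of Rsad2. Both treated groups lay far below CTRL, and they overlapped with each other. The log2 fold change was -1.91 ± 0.21 (adjusted p = 5.4e-05) for VLDLsep and -1.34 ± 0.18 (adjusted p = 4.2e-04) for CHYLsep. This left 26.6% and 39.6% of the CTRL level. Rsad2 was at 3.41, 3.2 and 5.96 cpm in CTRL, 1.46, 1.89 and 3 cpm in VLDLsep and 1.86, 1.85 and 3.15 cpm in CHYLsep. Viperin makes a chain-terminating nucleotide, and its treated libraries all lay below CTRL, replicate 3 being the highest of each group. With VLDLsep its log2 fold change was -0.98 ± 0.33 (adjusted p = 0.038), and with CHYLsep -0.86 ± 0.32 (adjusted p = 0.073), and the VLDLsep call was lost without CTRL replicate 3, VLDLsep replicate 1 or 2 or CHYLsep replicate 2 (adjusted p = 0.051 to 0.14). Samhd1 was at 154, 152 and 148 cpm in CTRL, 133, 131 and 127 cpm in VLDLsep and 134, 140 and 133 cpm in CHYLsep. SAMHD1 degrades deoxynucleotides, and its treated libraries were lower than CTRL by a small margin. Samhd1 showed log2 fold changes of -0.21 ± 0.04 (adjusted p = 0.0035) with VLDLsep and -0.16 ± 0.04 (adjusted p = 0.022) with CHYLsep. The CHYLsep call of Samhd1 was lost without CTRL replicate 1 or 2 or CHYLsep replicate 1 or 3 (adjusted p = 0.064 to 0.083).

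Bst2 and Mx2 did not pass the test. Bst2 was at 54.2, 56.4 and 53.2 cpm in CTRL, 59.6, 61.8 and 52 cpm in VLDLsep and 52.9, 66.2 and 57 cpm in CHYLsep. BST2 (tetherin) holds budding virus at the cell surface, and its groups overlapped. Relative to CTRL the log2 fold change was 0.08 ± 0.09 (adjusted p = 0.53) for VLDLsep and 0.10 ± 0.09 (adjusted p = 0.46) for CHYLsep. Mx2 was at 0.505, 0.379 and 1.11 cpm in CTRL, 0.502, 0.494 and 0.364 cpm in VLDLsep and 0.443, 0.585 and 0.547 cpm in CHYLsep. Mx2 encodes an antiviral GTPase, and its highest value was in CTRL replicate 3. For Mx2 the fitted log2 fold changes were -0.39 ± 0.39 (adjusted p = 0.48) with VLDLsep and -0.19 ± 0.38 (adjusted p = 0.77) with CHYLsep. These rested on 8 to 26 counts per library, and without CTRL replicate 3 the values were 0.04 and 0.24. Mx1 is listed at 0.126, 0.169 and 0.129 cpm in CTRL, 0.228, 0.27 and 0.182 cpm in VLDLsep and 0.266, 0.135 and 0.0912 cpm in CHYLsep, and a difference was not detectable at this depth.

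Guanylate-binding proteins and immunity-related GTPases attack vacuoles that hold intracellular pathogens, and 4 of their 6 genes were lower with VLDLsep (17.9% of all genes). Irgm1 was at 43.4, 43.3 and 44.6 cpm in CTRL, 30.6, 30.5 and 27.8 cpm in VLDLsep and 34.5, 36.4 and 32.6 cpm in CHYLsep. IRGM1 regulates the other immunity-related GTPases and autophagy, and CHYLsep lay between CTRL and VLDLsep with no overlap among the 3 groups. Irgm1 was fitted at -0.56 ± 0.06 (adjusted p = 6.6e-05) for VLDLsep and -0.34 ± 0.06 (adjusted p = 0.0021) for CHYLsep on the log2 scale. Igtp was at 10.5, 11 and 11.1 cpm in CTRL, 7.67, 6.96 and 7.01 cpm in VLDLsep and 7.44, 10.6 and 8.02 cpm in CHYLsep. IGTP (IRGM3) is a regulator of the same kind, and CHYLsep replicate 2 lay within the CTRL range. The log2 fold change was -0.59 ± 0.13 (adjusted p = 0.0043) for VLDLsep and -0.34 ± 0.12 (adjusted p = 0.064) for CHYLsep, and CHYLsep passed without CHYLsep replicate 2 (adjusted p = 0.0093). The span of Igtp overlaps that of Irgm2 on the same strand by 7974 bases, so reads from shared exons are uncertain. Ifi47 was at 5.51, 5.39 and 3.56 cpm in CTRL, 2.24, 2.97 and 2.46 cpm in VLDLsep and 2.53, 3.87 and 2.37 cpm in CHYLsep. IFI47 (IRG-47) is an effector GTPase, and only CHYLsep replicate 2 came above the lowest CTRL library. With VLDLsep its log2 fold change was -0.89 ± 0.24 (adjusted p = 0.013), and with CHYLsep -0.73 ± 0.23 (adjusted p = 0.04). The VLDLsep call was lost without VLDLsep replicate 1 (adjusted p = 0.053) and the CHYLsep call without CTRL replicate 1 or 2, VLDLsep replicate 1 or CHYLsep replicate 1 or 3 (adjusted p = 0.052 to 0.13).

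Of the guanylate-binding genes, which lie in 1 cluster on chromosome 3 and share sequence, Gbp3 passed for VLDLsep. Gbp3 was at 13.2, 13.7 and 16.2 cpm in CTRL, 10.9, 11.4 and 11.8 cpm in VLDLsep and 11.8, 10.7 and 13.5 cpm in CHYLsep. The VLDLsep libraries lay below CTRL and CHYLsep replicate 3 overlapped with it. Gbp3 showed log2 fold changes of -0.33 ± 0.11 (adjusted p = 0.036) with VLDLsep and -0.26 ± 0.11 (adjusted p = 0.1) with CHYLsep, and the VLDLsep call was lost without CTRL replicate 2 or 3 or VLDLsep replicate 1, 2 or 3 (adjusted p = 0.054 to 0.1). Gbp7 was at 3.62, 3.46 and 2.52 cpm in CTRL, 1.89, 2.16 and 1.05 cpm in VLDLsep and 2.48, 2.48 and 1 cpm in CHYLsep. Every treated library of Gbp7 lay below the lowest CTRL library, narrowly so for CHYLsep replicates 1 and 2, and replicate 3 was the lowest of every group. Relative to CTRL the log2 fold change was -0.95 ± 0.35 (adjusted p = 0.057) for VLDLsep and -0.77 ± 0.34 (adjusted p = 0.13) for CHYLsep. Neither passed, whereas VLDLsep did with the replicate block (adjusted p = 0.0017) and without CTRL replicate 3 or CHYLsep replicate 3 (adjusted p = 0.016 to 0.038), and in 7 of 19 alternatives in all. Gbp2 showed a log2 fold change of -0.25 ± 0.18 (adjusted p = 0.31) for VLDLsep and -0.12 ± 0.18 (adjusted p = 0.67) for CHYLsep.

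PARP9, DTX3L and PARP14 act in ADP-ribosylation and ubiquitination, PARP9 and DTX3L as partners, and all 3 genes fell with both particles. Among all genes 17.9% were lower with VLDLsep and 13.0% with CHYLsep. Dtx3l was at 25.6, 26.5 and 26.3 cpm in CTRL, 17.5, 19.4 and 13.9 cpm in VLDLsep and 19, 20.2 and 14.4 cpm in CHYLsep. Neither treated group overlapped with CTRL, and the log2 fold change was -0.64 ± 0.13 (adjusted p = 0.0036) for VLDLsep and -0.56 ± 0.13 (adjusted p = 0.0096) for CHYLsep. Parp9 was at 39.7, 41.3 and 41.6 cpm in CTRL, 28.7, 33.9 and 28.6 cpm in VLDLsep and 35.3, 33 and 31.7 cpm in CHYLsep. The treated libraries again lay below CTRL. For Parp9 the fitted log2 fold changes were -0.43 ± 0.08 (adjusted p = 0.0012) with VLDLsep and -0.29 ± 0.07 (adjusted p = 0.014) with CHYLsep. Parp14 was at 38.4, 44.2 and 39.2 cpm in CTRL, 31.8, 34.9 and 25.6 cpm in VLDLsep and 35, 31.1 and 25.7 cpm in CHYLsep. No treated library reached CTRL here either, and the log2 fold change was -0.41 ± 0.13 (adjusted p = 0.027) for VLDLsep and -0.42 ± 0.13 (adjusted p = 0.034) for CHYLsep. The CHYLsep call of Parp9 was lost without CHYLsep replicate 3 (adjusted p = 0.051). For Parp14 the VLDLsep call was lost without CTRL replicate 2 or VLDLsep replicate 1 or 3 (adjusted p = 0.052 to 0.092) and the CHYLsep call without CTRL replicate 1 or 2 or CHYLsep replicate 2 or 3 (adjusted p = 0.056 to 0.11). Dtx3l and Parp9 lie on opposite strands of chromosome 16 and overlap by 682 bases, so their values are not fully separate.

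Rtp4 (chr16:23520291-23614222) showed the largest decrease of the 45 genes with both particles. Rtp4 was at 8.96, 9.57 and 10.7 cpm in CTRL, 2.6, 1.98 and 1.05 cpm in VLDLsep and 3.28, 4.68 and 2.1 cpm in CHYLsep. RTP4 is a chaperone of G-protein-coupled receptors that interferon induces strongly, and its treated libraries lay far below CTRL. Rtp4 was fitted at -2.45 ± 0.31 (adjusted p = 1.7e-04) for VLDLsep and -1.60 ± 0.26 (adjusted p = 0.0012) for CHYLsep on the log2 scale. This left 18.3% and 33% of the CTRL level. Its span overlaps that of Masp1 on the other strand by 525 bases. Xaf1 was at 8.92, 6.7 and 8.7 cpm in CTRL, 3.01, 3.86 and 3.5 cpm in VLDLsep and 5.14, 5.45 and 4.42 cpm in CHYLsep. XAF1 counters inhibitors of apoptosis, and its 3 groups did not overlap, CHYLsep lying between the others. The log2 fold change was -1.22 ± 0.16 (adjusted p = 2.3e-04) for VLDLsep and -0.69 ± 0.15 (adjusted p = 0.0063) for CHYLsep.

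Slfn8, Ifi44 and Trim30a also fell with both particles. Slfn8 was at 22.7, 23.9 and 20.7 cpm in CTRL, 11.2, 11.5 and 7.87 cpm in VLDLsep and 12.7, 13.5 and 8.57 cpm in CHYLsep. Schlafen proteins act on tRNA and on cell growth, and the treated libraries of Slfn8 did not overlap with CTRL. With VLDLsep its log2 fold change was -1.15 ± 0.17 (adjusted p = 4.3e-04), and with CHYLsep -0.98 ± 0.16 (adjusted p = 0.0016), although reads could be split with its copy Slfn9. Ifi44 was at 30.4, 33.2 and 36.1 cpm in CTRL, 15.6, 21.9 and 20.3 cpm in VLDLsep and 21.3, 24.1 and 22.8 cpm in CHYLsep. IFI44 is an interferon-induced protein of the cytoplasm, and CTRL was separated from both treated groups. Ifi44 showed log2 fold changes of -0.79 ± 0.12 (adjusted p = 3.9e-04) with VLDLsep and -0.55 ± 0.11 (adjusted p = 0.0048) with CHYLsep. Trim30a was at 55.8, 58.1 and 53.8 cpm in CTRL, 39.2, 44 and 35.1 cpm in VLDLsep and 48.5, 46.9 and 39.1 cpm in CHYLsep. TRIM30A restrains Toll-like receptor signalling, and its treated libraries lay below CTRL. Relative to CTRL the log2 fold change was -0.51 ± 0.09 (adjusted p = 0.0019) for VLDLsep and -0.32 ± 0.09 (adjusted p = 0.027) for CHYLsep, and the CHYLsep call was lost without CTRL replicate 1 or 2 or CHYLsep replicate 3 (adjusted p = 0.069 to 0.087).

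Ifi35, Lgals3bp and Slfn5 did not pass for either particle. Ifi35, whose product binds the partner NMI, showed a log2 fold change of -0.14 ± 0.08 (adjusted p = 0.23) for VLDLsep and -0.11 ± 0.08 (adjusted p = 0.38) for CHYLsep, and passed for VLDLsep with the replicate block (adjusted p = 0.044). Lgals3bp was at 341, 343 and 305 cpm in CTRL, 341, 324 and 243 cpm in VLDLsep and 315, 351 and 259 cpm in CHYLsep. LGALS3BP is a secreted glycoprotein and was the most abundant of the genes per length, at 116 cpm per kilobase of exon in CTRL. Its groups overlapped, and the log2 fold change was -0.14 ± 0.13 (adjusted p = 0.46) for VLDLsep and -0.11 ± 0.13 (adjusted p = 0.61) for CHYLsep. Slfn5, at 0.0939 cpm per kilobase in CTRL, showed a log2 fold change of 0.05 ± 0.30 (adjusted p = 0.92) for VLDLsep and -0.12 ± 0.30 (adjusted p = 0.81) for CHYLsep. On this per-length scale the CTRL level was 60.5 for Bst2, 38.6 for Oas1a, 37 for Trim25, 1.06 for Ifit1 and 0.966 for Rsad2. The genes thus spanned a wide range of basal levels, and genes that fell and genes that did not pass were found towards both ends of it. The 6 genes lowered by VLDLsep with a log2 fold change under -1 lay between 1.06 (Ifit1) and 5.48 (Slfn8).

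In the direct comparison of VLDLsep with CHYLsep, limma called no interferon-stimulated gene, and 0% of all 12637 genes. The log2 difference (VLDLsep minus CHYLsep) was negative for 39 of the 45 genes, with a median of -0.13. It was negative for 50.5% of all genes, with a median of -0.0012. The median of the 45 genes was -0.04 without VLDLsep replicate 3 and -0.20 without VLDLsep replicate 2. At an unadjusted p under 0.05, 6 of the 45 were lower with VLDLsep and 0 were higher, against 3.09% of all genes that were lower. These were Rtp4, Cmpk2, Xaf1, Irf1, Irgm1 and Eif2ak2. The differences were -0.85 ± 0.36 (adjusted p = 0.74) for Rtp4, -0.58 ± 0.23 (adjusted p = 0.74) for Cmpk2, -0.53 ± 0.18 (adjusted p = 0.63) for Xaf1, -0.32 ± 0.11 (adjusted p = 0.67) for Irf1, -0.22 ± 0.06 (adjusted p = 0.57) for Irgm1 and -0.13 ± 0.05 (adjusted p = 0.7) for Eif2ak2. With the replicate block 0 of the 45 genes passed and 0.578% of all genes were lower with VLDLsep. DESeq2 also called 0 of the 45, and 24 of all genes. The calls above, past the threshold for one particle and not for the other, are therefore not shown to differ between the particles.

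The interferons themselves were at or near 0. Of 20 interferon genes in the list, among them Ifnb1 and Ifng, 18 had 0 counts in every library, and the highest count was 2 (Ifna4). A count of 0 allows up to 3 counts, or 0.134 cpm in the smallest library, a limit that covers counting error only. The receptor genes were expressed. Ifnar1 fell from 116 ± 7.8 to 100 ± 7.81 cpm with VLDLsep (mean ± SD, n = 3; log2 fold change -0.22 ± 0.07, adjusted p = 0.04). This call was lost without CTRL replicate 1 or 3, VLDLsep replicate 2 or 3 or CHYLsep replicate 2 (adjusted p = 0.056 to 0.13). It was also lost with no filter and without replicate 3 in every group. Ifnar2 fell from 143 ± 1.5 to 122 ± 8.46 cpm (log2 fold change -0.23 ± 0.05, adjusted p = 0.0074). Ifngr1, a receptor chain for interferon gamma, changed with VLDLsep on the log2 scale by -0.61 ± 0.12 (adjusted p = 0.0026) and Il10rb, shared with the lambda interferon receptor, by -0.27 ± 0.06 (adjusted p = 0.0041). For CHYLsep, the log2 fold change of Ifnar1 was -0.14 ± 0.07 (adjusted p = 0.2) and that of Ifnar2 -0.19 ± 0.05 (adjusted p = 0.025), and the latter call was lost without CTRL replicate 1, 2 or 3 or CHYLsep replicate 1 or 3 (adjusted p = 0.053 to 0.074).

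Of 14 genes that act between receptor and nucleus or in feedback, 4 were lower and 2 higher with VLDLsep (17.9% and 17.8% of all genes). With CHYLsep 2 were lower and 1 higher (13.0% and 12.7% of all genes). The median log2 fold change was -0.08 and -0.04, and the kinase genes Jak1 and Tyk2 were called with neither particle. Among the 14, a pair of phosphatases that restrain JAK signalling moved in opposite directions. On the log2 scale Ptpn6 (SHP-1) changed by -0.79 ± 0.07 (adjusted p = 1.8e-05) and Ptpn1 (PTP1B) by 0.75 ± 0.09 (adjusted p = 8.9e-05) with VLDLsep, and by -0.55 ± 0.07 (adjusted p = 3.2e-04) and 0.74 ± 0.09 (adjusted p = 1.7e-04) with CHYLsep. The repressors Irf2 and Irf2bp1 were lower with VLDLsep, with log2 fold changes of -0.64 ± 0.16 (adjusted p = 0.011) and -0.48 ± 0.09 (adjusted p = 0.0016). Jak2, which transmits interferon gamma signals, was higher with VLDLsep by 0.17 ± 0.06 (adjusted p = 0.033) on the log2 scale, a call lost without CTRL replicate 1 or 2 or VLDLsep replicate 1 or 2 (adjusted p = 0.067 to 0.12), and also with DESeq2, with scaling by library size alone, with no filter and with only the groups compared.

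Of 26 genes on the route from nucleic acid sensing to interferon, 11 were lower and 4 higher with VLDLsep (17.9% and 17.8% of all genes), and 9 were lower and 3 higher with CHYLsep (13.0% and 12.7% of all genes). Tlr7, the endosomal receptor of single-stranded RNA, fell from 161 ± 7.15 to 95.4 ± 2.92 cpm with VLDLsep (log2 fold change -0.76 ± 0.05, adjusted p = 2.4e-06). Trex1, which degrades DNA in the cytosol, changed on the log2 scale by -0.84 ± 0.09 (adjusted p = 6.5e-05), the DNA sensor gene Ifi204 by -0.95 ± 0.11 (adjusted p = 1.1e-04) and the transcription factor gene Irf8 by -0.63 ± 0.11 (adjusted p = 0.0013). Among the few that rose, Ticam1 (TRIF), an adaptor of Toll-like receptors, rose from 20.5 ± 1.26 to 38.7 ± 2.71 cpm (log2 fold change 0.91 ± 0.07, adjusted p = 6.6e-06) and Tbk1, the kinase that activates IRF3, from 63.3 ± 1.92 to 85.6 ± 5.32 cpm (log2 fold change 0.43 ± 0.06, adjusted p = 4.7e-04). With CHYLsep the log2 fold changes were -0.55 ± 0.05 for Tlr7, -0.63 ± 0.09 for Trex1, 0.65 ± 0.07 for Ticam1 and 0.35 ± 0.07 for Tbk1.

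Another list of 84 interferon-stimulated genes outside the 46 was counted in the same way. It too was chosen with earlier results of these data known, so its counts are not independent evidence. Of its 64 tested genes, 29 were lower and 2 higher with VLDLsep (median -0.33), and 24 were lower and 2 higher with CHYLsep (median -0.27), beside 17.9% lower and 17.8% higher with VLDLsep and 13.0% and 12.7% with CHYLsep among all genes. The 2 that rose were Cd274, which encodes the checkpoint ligand PD-L1, and Mlkl, the effector of necroptosis. Cd274 went from 4.96 ± 2.1 to 22.6 ± 0.395 cpm with VLDLsep and 16.6 ± 1.07 cpm with CHYLsep, with a log2 fold change of 2.27 ± 0.19 (adjusted p = 9.4e-06) for VLDLsep and 1.82 ± 0.19 (adjusted p = 8.4e-05) for CHYLsep. Mlkl showed a log2 fold change of 0.67 ± 0.06 (adjusted p = 1.9e-05) for VLDLsep and 0.56 ± 0.06 (adjusted p = 1.1e-04) for CHYLsep. Mndal, Slfn9, Sp110 and Psmb9 fell, with log2 fold changes of -1.10 ± 0.12, -1.13 ± 0.12, -0.45 ± 0.05 and -0.54 ± 0.07 for VLDLsep. Of 7 chemokine genes that interferon induces, 5 were tested and 3 were lower with each particle, the others being not called. The lower share of all genes was 17.9% with VLDLsep and 13.0% with CHYLsep. Ccl2, which attracts monocytes, changed on the log2 scale by -1.84 ± 0.15 with VLDLsep and -1.29 ± 0.14 with CHYLsep, Ccl7 by -3.23 ± 0.47 and -2.15 ± 0.38, and Cxcl10, an attractant of T cells, by -1.26 ± 0.33 and -0.96 ± 0.31. The Cxcl10 call was lost without VLDLsep replicate 1 (adjusted p = 0.059) for VLDLsep and without CTRL replicate 2 or 3, VLDLsep replicate 2 or CHYLsep replicate 1, 2 or 3 (adjusted p = 0.065 to 0.15) for CHYLsep. The CHYLsep call of Cxcl10 was also lost with limma-trend and with no filter. Ccl2, Ccl7 and Cxcl10 are, like Usp18, inflammatory genes that the study chose on these libraries, so their decrease is not independent evidence.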

How the data were processed

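RNAseq of 9 libraries of RAW 264.7 cells was grouped by the sample labels into CTRL, VLDLsep and CHYLsep, 3 each. Per the methods, the authors quantified reads with Salmon 0.14.1 on GENCODE transcripts of GRCm38.p6 and used tximport to give the estimated counts per gene that they deposited. The methods add a correction of the counts for library size and mean transcript length. Since 58.3% of values over 10 were exact whole numbers (tolerance 0), the deposited values were taken to be uncorrected, and no such correction was applied. Reads of near-identical genes are split by estimation, so these genes are uncertain. Symbols were found for 54346 of 54432 gene identifiers, and coordinates are from the preceding GENCODE release.

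The filter, TMM (edgeR 4.0.16), voom weights and limma 3.58.1 (R 4.3.3) followed the methods, with 1 model for the 9 libraries and Benjamini-Hochberg adjustment over 12637 genes. Depth was nearly equal (22393893 to 22856792 counts). Alternatives were edgeR's quasi-likelihood test and DESeq2 1.42.0 on rounded counts, limma-trend, other scalings and filters, fits of 2 groups, a replicate block and left-out libraries. The steps were tested on simulated data.

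Groups share replicate numbers in the sample titles, and the methods do not say that a number marks a shared experiment. Deviations from the group means correlated over genes at 0.138, 0.132 and 0.293 between same-numbered CTRL and VLDLsep libraries. VLDLsep replicate 2 with CTRL replicate 1 came close, at 0.116. Replicate 3 was set apart, at -0.217 to -0.121 with the other numbers. Numbers 1 and 2 are thus not shown to be pairs. The blocked value is printed where it changes a VLDLsep call, and also for Stat2 and Irf7.

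The 46 genes, their roles and the other gene lists were chosen with earlier results of these data known. Per-library values are given for genes called with no overlap between groups and for the transcription factors, RNA sensors, Isg15 and Usp18, and also for Bst2, Mx1, Mx2, Gbp7 and Lgals3bp, which were added after their values were seen. From each other list up to 6 genes with the smallest p for VLDLsep are named, plus Ifnb1, Ifnar1, Ifnar2, Jak1 and Tyk2. Some results of these lists are not reported here. Promoter sequences are from RefSeq (GRCm38.p6).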

Additional observations from a re-analysis of the deposited data

How the results depend on the processing

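Of the 19 alternatives, no call of an interferon-stimulated gene reversed its direction under any. Of the 30 genes lower with VLDLsep, 20 were called in all 19, and Ifit1 in the 18 that gave it a value, since the stricter filter left it out. Of the 22 lower with CHYLsep, 15 were called in all 19. The number past the threshold was 31 for VLDLsep and 22 for CHYLsep. It was 25 and 21 with no filter on low counts, where more genes were tested and the VLDLsep calls of Stat2, Irf7, Ifih1, Oas1a, Rsad2 and Gbp3 and the CHYLsep call of Ifi47 were lost, 33 and 30 with scaling by library size alone, and 36 and 33 with the replicate block. Leaving out libraries gave 22 to 33 for VLDLsep (median log2 fold change -0.59 to -0.44) and 16 to 27 for CHYLsep (-0.45 to -0.28). For CHYLsep against CTRL same-numbered libraries correlated at 0.124, 0.0684 and 0.338, and CHYLsep replicate 2 with CTRL replicate 1 at 0.155. Between the particles, VLDLsep replicate 1 with CHYLsep replicate 2 stood at 0.179 and VLDLsep replicate 2 with CHYLsep replicate 1 at 0.169. The main fit did not take the numbers as pairs, because the methods name no such pairing. With the block CHYLsep additionally passed for Ddx58, Gbp3, Gbp7, Igtp, Irf7, Oas1a, Oas3, Oasl2, Rsad2, Stat2 and Trim25 and 4949 of all genes passed in place of 3249. For VLDLsep the block added Ddx58, Herc6, Oas3, Gbp7 and Ifi35, and it changed no other call of the 45 genes for either particle. For VLDLsep against CHYLsep the count over all genes was 0, but 24 with DESeq2, 147 with the block (correlations 0.0286, 0.117 and 0.357), 0 to 1 when a single library was left out (1 without VLDLsep replicate 3 or CHYLsep replicate 2) and 257 without replicate 3 in every group, while 0 of the 45 genes passed in any. With each library left out in turn, the median difference between the particles was -0.20 (without VLDLsep replicate 2) to -0.04 (without VLDLsep replicate 3). The causes were not tested. With 3 libraries a group and low counts for Mx1, Mx2, Slfn5, Ifit3 and Ifit1, small changes of these genes were not detectable.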

Other observations

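In the interferon-inducible p200 family, whose proteins bind DNA and include sensors of it, some further genes were looked at after their values were seen. Ifi203 fell from 49.2 ± 3.16 to 23.9 ± 4.32 cpm with VLDLsep and 27.1 ± 4.76 cpm with CHYLsep (mean ± SD, n = 3), with log2 fold changes of -1.05 ± 0.14 (adjusted p = 1.8e-04) and -0.87 ± 0.13 (adjusted p = 8.4e-04) from limma. Ifi207, with a wide spread in CTRL, fell from 194 ± 51.3 to 127 ± 9.77 and 125 ± 20.6 cpm, with log2 fold changes of -0.59 ± 0.16 (adjusted p = 0.016) and -0.62 ± 0.16 (adjusted p = 0.017). The Ifi207 calls were lost without VLDLsep replicate 1 (adjusted p = 0.058) for VLDLsep and without CHYLsep replicate 1 or 2 (adjusted p = 0.06 to 0.067) for CHYLsep. Ifi209 had 0 to 15 counts per library, at 0.652, 0.423 and 0.572 cpm in CTRL, 0, 0.135 and 0.319 cpm in VLDLsep and 0.443, 0.209 and 0.41 cpm in CHYLsep. It passed for VLDLsep (adjusted p = 0.025) but not with DESeq2 or without VLDLsep replicate 1 (adjusted p = 0.074), and did not pass for CHYLsep (adjusted p = 0.46). Aim2, the inflammasome sensor of the same family, was at 96.6 ± 3.92 cpm in CTRL, 93.8 ± 3.16 cpm in VLDLsep and 95.3 ± 1.28 cpm in CHYLsep and did not pass, with log2 fold changes of -0.04 ± 0.05 (adjusted p = 0.54) and -0.02 ± 0.05 (adjusted p = 0.82). These genes share sequence, so the counts of single members are uncertain.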
